A study of Homo sapiens with 5 samples.

Results

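The DROSHA knockdown consisted of 2 poly(A) RNA libraries, each made 18 h after transfection of a different siRNA against DROSHA, set against 1 mock library; these are 3 of the 5 libraries of the series. All were made from the established human embryonic kidney line HEK293, in the strain labelled HEK293 T-Rex FLAG:DICER1 FLP-IN, so the mock also carried the tagged DICER1 insert. The other 2 libraries carried siRNAs against DICER1 and served only to estimate the spread and as values set beside those of the DROSHA libraries, against the same mock. In the design, the study asked what Dicer binding does to gene regulation, and the DROSHA siRNAs and the mock were its controls. Total counts were 8497016 for the mock, 8736455 for DROSHA siRNA 1 and 7812093 for DROSHA siRNA 2. Of 18257 genes in the table, 12234 had at least 1 CPM (counts scaled to library size) in at least 2 libraries and were tested. Separate cultures are not stated in the labels, and the p-values cover only how far these libraries spread, which may be technical. Each pair holds 2 different siRNAs, so this spread also takes in differences between siRNAs. A gene changed by only 1 siRNA of a pair is thus given a wide spread and a large p. The mock is a single library, and a feature of the mock alone cannot be told apart from an effect shared by both siRNAs.

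DROSHA is the nuclear nuclease that, with the RNA-binding protein DGCR8, forms the Microprocessor, which cuts hairpins out of long primary transcripts and so starts the making of most microRNAs. The cut hairpin is exported and trimmed by DICER1, and the mature microRNA then lowers the mRNAs whose 3' untranslated regions (UTRs) match its seed. The Microprocessor can also cut hairpins that lie inside an mRNA, the known example being the DGCR8 mRNA itself. An siRNA is built like a microRNA and can act on mRNAs that match only its seed.

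The line's own markers were present, with VIM at 418, 418 and 428 CPM and LIN28B at 127, 140 and 110 CPM in the mock, siRNA 1 and siRNA 2. SALL4, also listed as a marker, was at 0, 0.114 and 0.256 CPM and NEFM at 1.29, 1.95 and 1.54 CPM. The 12 marker genes of this line summed to between 899 and 1090 CPM over the 5 libraries. The 19 markers of other cell types summed to between 55.7 and 63.2 CPM, led by HBB at up to 26.6 CPM, and PTPRC, HBG1, INS, GCG and SFTPC were at 0 in all 5. The kidney developmental factor PAX2, a marker of the line, was at 4.35, 2.29 and 2.05 CPM in the mock, siRNA 1 and siRNA 2, which did not pass the test. In bulk RNA, fewer cells of a kind and less RNA per cell cannot be told apart.

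DROSHA mRNA fell in both siRNA libraries and was the only gene that passed the test. Its level was 191 CPM for the mock, 41.2 CPM with siRNA 1 and 41.9 CPM with siRNA 2, from 1610, 359 and 329 counts. The siRNA libraries lay close together, far below the mock, and the DICER1 siRNA libraries were at 0.02 and 0.01 against the mock on the log2 scale. By edgeR's quasi-likelihood test the difference was -2.20 ± 0.09 (log2, SE; adjusted p = 0.000882). This 1 call is 0.00817% of the 12234 genes. Before adjustment, p was under 0.05 for 253 genes on the higher side (2.07%) and 198 on the lower side (1.62%), while DESeq2 gave 80 such genes in all and also called DROSHA alone. All other genes below are therefore given as values that did not pass the test.

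**Figure D1:**
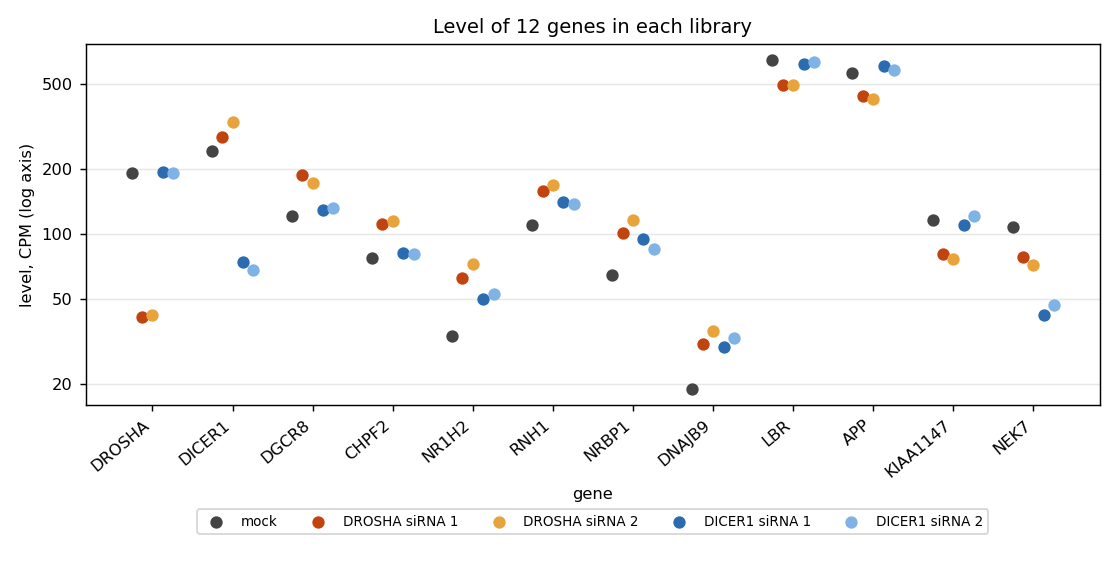
CPM on a log axis of 12 genes named by rule, 1 point per library, in the mock, both DROSHA siRNA libraries and both DICER1 siRNA libraries. DROSHA falls from 191 to about 41.2 and 41.9 CPM with its siRNAs; DGCR8 and CHPF2 lie above the mock with DROSHA siRNAs and near it with DICER1 siRNAs, and NEK7 lies lowest in the DICER1 siRNA libraries.

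DGCR8, the partner of DROSHA, was among the genes with the smallest p, ranking 5 of 12234. Its level was 122 CPM in the mock, 188 CPM with siRNA 1 and 173 CPM with siRNA 2, from 1025, 1639 and 1357 counts. Both siRNA libraries were above the mock, as they were for 31.5% of all tested genes. The log2 fold change was 0.57 ± 0.10 (edgeR adjusted p = 0.978). Without DROSHA siRNA 1, in a fit of 1 library against 1 whose spread comes from the DICER1 pair, it passed (0.50, edgeR adjusted p = 0.0436), and without siRNA 2 it did not. In that fit without siRNA 1, NR1H2, NRBP1, LBR, RNH1, APP, CHPF2 and DNAJB9, among others, passed with smaller adjusted p, from 0.0061 for NR1H2 to 0.0358 for CHPF2 and DNAJB9 by edgeR. With DICER1 siRNAs the same gene was 0.08 and 0.12 above the mock. Compared directly in the same fit, with the mock left out of the contrast, DROSHA siRNA libraries were 0.47 ± 0.08 above DICER1 siRNA libraries on the log2 scale (edgeR adjusted p = 0.337). In that direct contrast 2 genes passed, DROSHA and DICER1, which is 0.0163% of those tested. DICER1 itself was at 243, 282 and 333 CPM in the mock, siRNA 1 and siRNA 2, 0.34 ± 0.12 higher on the log2 scale (edgeR adjusted p = 0.978). The counts do not separate DICER1 reads of the insert from those of the native gene.

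The DGCR8 mRNA carries annotated microRNA hairpins in its spliced sequence, and so does the mRNA of CHPF2, which ranked 8. Their mature products are shown because these genes held the highest ranks among mRNAs with such a hairpin. Sequences are from RefSeq (GRCh38.p14) and written 5′ to 3′, with the seed, bases 2 to 8, in capitals.
hsa-miR-3618: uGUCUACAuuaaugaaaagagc
hsa-miR-1306-5p: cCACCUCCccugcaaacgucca
hsa-miR-1306-3p: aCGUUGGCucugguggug
hsa-miR-671-5p: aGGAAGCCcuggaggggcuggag
hsa-miR-671-3p: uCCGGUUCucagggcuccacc
In the GENCODE 29 transcript of DGCR8, miR-3618 lies in the 5' UTR, at bases 263 to 284, and both arms of miR-1306 lie in the coding region, at bases 538 to 559 and 578 to 595, just after its start at base 430. Both arms of miR-671 lie in the coding region of CHPF2, at bases 3600 to 3622 and 3639 to 3659 of a transcript whose coding part ends at base 3832. The whole MIR671 hairpin, at chr7:151238421-151238538 on the plus strand of GRCh38.p14, is given with both mature arms in capitals.
MIR671: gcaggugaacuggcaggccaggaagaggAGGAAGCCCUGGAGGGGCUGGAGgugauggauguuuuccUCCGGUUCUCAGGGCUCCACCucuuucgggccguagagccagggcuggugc

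CHPF2, an enzyme that extends chondroitin chains, was at 77.4 CPM in the mock, 112 CPM with siRNA 1 and 115 CPM with siRNA 2, from 651, 975 and 903 counts. Both siRNA libraries lay above the mock by nearly the same amount, 0.53 and 0.57 on the log2 scale. The log2 fold change was 0.55 ± 0.10 (edgeR adjusted p = 0.978). With DICER1 siRNAs it was 0.08 and 0.06 above the mock, and the direct contrast put DROSHA siRNA libraries 0.48 ± 0.08 above DICER1 siRNA libraries (edgeR adjusted p = 0.337). DGCR8 and CHPF2 thus had similar values in all 4 siRNA libraries.

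Across all mRNAs that hold an annotated hairpin, the counts by direction showed no such shift. Of 1562 hairpins looked up, at least 1 was found whole in the spliced mRNA of 48 tested genes, and DGCR8 counts here through MIR3618. Of these genes 12 were higher and 18 lower in both siRNA libraries, against 3852 (31.5%) and 3970 (32.5%) of all 12234 tested genes, and the other 4412 were split. Of the 48, the unadjusted edgeR p was under 0.05 for 3 on the higher side and 0 on the lower. Over all tested genes it was so for 253 (2.07%) and 198 (1.62%). The gene with the next smallest p after DGCR8 and CHPF2 was SLC35B2, a Golgi sulfate donor transporter whose 3' UTR holds MIR4647, which ranked 59. It was at 75.4, 94.7 and 97.8 CPM in the mock, siRNA 1 and siRNA 2, or 0.35 ± 0.10 higher on the log2 scale (edgeR adjusted p = 0.978). With DICER1 siRNAs SLC35B2 was 0.03 and 0.05 above the mock, and the direct contrast was 0.31 ± 0.08 (edgeR adjusted p = 0.474). On the lower side FSTL1, a secreted glycoprotein whose 3' UTR holds MIR198, was at 164, 121 and 55.8 CPM, far lower with siRNA 2 than with siRNA 1, and at -0.57 and -1.26 (log2) with DICER1 siRNAs. Hosts that carry a hairpin outside the spliced mRNA numbered 577, with medians of -0.00232 and -0.00161 in siRNA 1 and 2 on the log2 scale. Among them MCM7, a replication helicase subunit whose intron carries members of the miR-17 and miR-92 families, was at 1234, 1254 and 1237 CPM, and SKA2, a spindle protein and host of a miR-130 family member, at 136, 119 and 107 CPM.

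Few genes differed from the mock by a large factor in both siRNA libraries. Among 10586 genes averaging 5 CPM or more over the mock and both siRNA libraries, 13 (0.123%) were at least 1.5-fold lower in both and 6 (0.0567%) at least 1.5-fold higher in both. At 2-fold, 13 genes (0.123%) were lower with siRNA 1 and 62 (0.586%) with siRNA 2, and DROSHA was the only gene in both sets. On the higher side no gene reached 2-fold with siRNA 1 (0.0%) and 3 did with siRNA 2 (0.0283%), CHIC1 and NR1H2 among them.

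On the higher side, the gene with the smallest p was NR1H2, a nuclear receptor for oxysterols also known as LXR beta. It was at 33.5, 62.7 and 72.7 CPM in the mock, siRNA 1 and siRNA 2, well above the mock in each, and 1.01 ± 0.14 higher on the log2 scale (edgeR adjusted p = 0.978). With DICER1 siRNAs it stood 0.57 and 0.64 above the same mock, and the direct contrast was 0.40 ± 0.11 (edgeR adjusted p = 0.474). RNH1, the cytosolic ribonuclease inhibitor, was at 110, 158 and 168 CPM, and NRBP1, a pseudokinase, at 64.7, 102 and 117 CPM. DNAJB9, a chaperone cofactor of the endoplasmic reticulum, was at 19.1, 31.0 and 35.6 CPM. Beside DGCR8 and CHPF2, the others of the 12 were MINK1, FAM134A, VPS37B, MRPL17, IMPDH1 and TPM4, with log2 fold changes from 0.34 for TPM4, a tropomyosin, to 0.56 for FAM134A. All 12 were above the mock in both DICER1 siRNA libraries too, but they were named for lying above this same mock. The share of all genes above it in both DICER1 siRNA libraries was not counted. Both knockdowns share the mock, so these values are set side by side and not compared as independent. Direct contrasts of DROSHA with DICER1 siRNA libraries were near 0 for MINK1, a kinase, at 0.02 ± 0.10, and VPS37B, a sorting complex subunit, at 0.01 ± 0.08.

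Some of the largest differences on the higher side among genes with an unadjusted p under 0.05 came at low counts. NR4A2, an immediate early nuclear receptor, had 36, 56 and 61 counts in the mock, siRNA 1 and siRNA 2, and the homeobox gene HOXC8 had 144, 194 and 269. In each of these genes siRNA 2 was further from the mock than siRNA 1.

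Lowest in p among genes below the mock, after DROSHA, LBR, a sterol reductase that also anchors lamins at the nuclear membrane, was at 642 CPM in the mock, 493 with siRNA 1 and 494 with siRNA 2. APP, the amyloid precursor, was at 558, 437 and 424 CPM, and KIAA1147 at 116, 80.7 and 76.9 CPM. These 3 genes lay below the mock by nearly equal amounts in both siRNA libraries, with log2 fold changes of -0.38 ± 0.06, -0.38 ± 0.06 and -0.56 ± 0.11 (edgeR adjusted p = 0.978 each). The DICER1 siRNA libraries stood near the mock for all 3, between -0.08 and 0.11. Direct contrasts of DROSHA with DICER1 siRNA libraries were -0.34 ± 0.05 for LBR, -0.46 ± 0.05 for APP and -0.55 ± 0.09 for KIAA1147 (edgeR adjusted p = 0.236, 0.150 and 0.312). MAP1A, a microtubule-associated protein, was at 23.0, 10.6 and 13.9 CPM, and GNB4, a G protein beta subunit, at 70.3, 40.9 and 47.9 CPM. With DICER1 siRNAs MAP1A was at -0.64 and -0.70 and GNB4 at -0.19 and -0.41 against the mock on the log2 scale. The mitotic kinase NEK7, at 108, 78.0 and 72.2 CPM, was lower still with DICER1 siRNAs, at -1.36 and -1.21 against the mock on the log2 scale. PPAT, the first enzyme of purine synthesis, was at 115, 80.02 and 60.04 CPM, and NAMPT, the rate-limiting enzyme of NAD salvage, at 91.6, 69.9 and 65.8 CPM. CLIP2, ARL6, PTGR2 and MZT1 complete the 12, with log2 fold changes between -1.04 and -0.61. With DICER1 siRNAs they stood between -0.62, in PTGR2, and -0.24, in CLIP2, against the same mock. With those siRNAs PPAT and NAMPT stood between -0.23 and -0.02. Among the largest differences, DHRS4, a short-chain dehydrogenase, had 68, 40 and 27 counts, TMEM121 had 72, 40 and 39, and GRIK3, a kainate receptor subunit, had 81, 57 and 30 in the mock, siRNA 1 and siRNA 2.

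**Figure D2:**
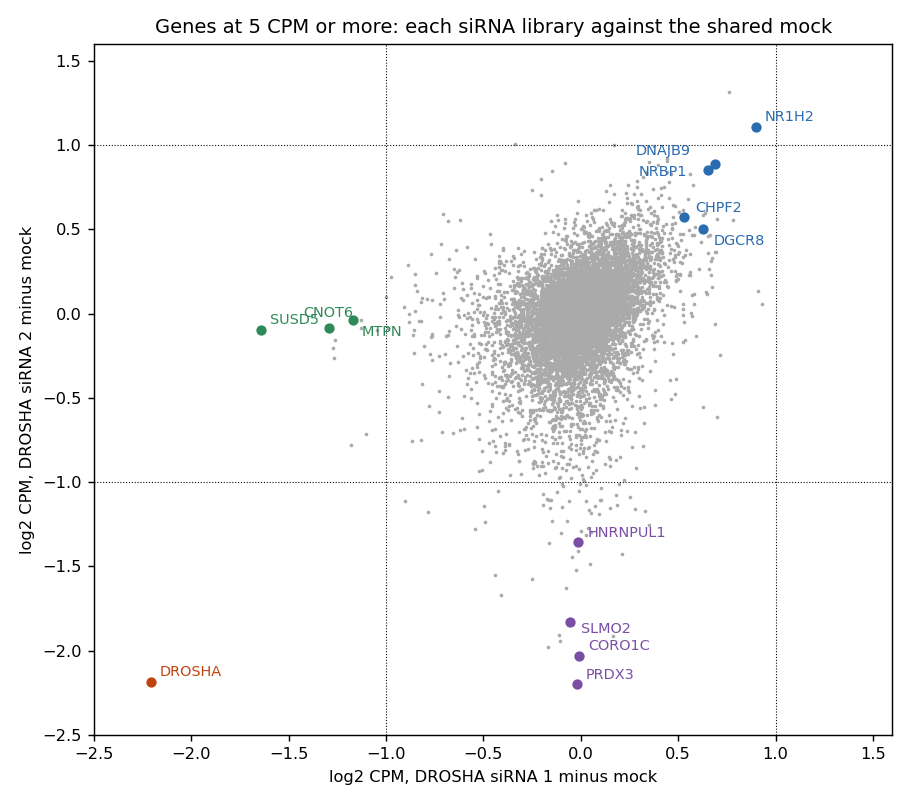
Each point is 1 of 10586 genes averaging 5 CPM or more, placed by its log2 difference from the same mock in DROSHA siRNA 1 (horizontal) and siRNA 2 (vertical); dotted lines mark 2-fold. DROSHA is low in both libraries, PRDX3, CORO1C, SLMO2 and HNRNPUL1 are low with siRNA 2 and near the mock with siRNA 1, and SUSD5, CNOT6 and MTPN the other way round.

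Most of the strongly low genes were low with 1 siRNA and near the mock with the other. The genes named for this were chosen after their values were seen. PRDX3, a mitochondrial peroxidase, had 5215 counts in the mock, 5328 with siRNA 1 and 1057 with siRNA 2, which is -0.02 and -2.20 on the log2 scale. CORO1C, an actin-binding coronin, had 2799, 2878 and 638 counts, and HNRNPUL1, an RNA-binding protein, had 7729, 7929 and 2816. In these 3 genes siRNA 2 stood between -2.20 and -1.36 on the log2 scale and siRNA 1 between -0.02 and -0.01. In the other direction CNOT6, a deadenylase of the CCR4-NOT complex, had 1523, 642 and 1338 counts in the mock, siRNA 1 and siRNA 2, and MTPN had 1862, 855 and 1695. For these 5 genes the DICER1 siRNA libraries were between -0.39, in CORO1C, and 0.0052, in PRDX3. Genes at least 2-fold lower with siRNA 2 had a median of -0.0363 in siRNA 1, and those at least 2-fold lower with siRNA 1 a median of -0.0966 in siRNA 2.

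The counts of calls followed the same split. Without DROSHA siRNA 1, which leaves 1 library against 1 and a spread taken from the DICER1 pair, edgeR called 225 of 12158 genes (1.85%), 192 lower and 33 higher. Without DROSHA siRNA 2 it called 4 of 12180 (0.0328%): DROSHA, CNOT6, MTPN and NBN. Over the 10586 genes averaging 5 CPM or more, the log2 differences from the mock had an SD of 0.187 with siRNA 1 and 0.258 with siRNA 2.

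The genes that were low with only 1 siRNA often shared a 7-base word in the 3' UTR. For each of 12681 words held by at least 300 genes, on the sense strand of GENCODE 29 3' UTRs, the median log2 difference of holders minus all others was taken in each library, over 12039 genes. With siRNA 1 the lowest word was ATAGAAT, held by 1789 genes, and with siRNA 2 it was GTGACTT, held by 1806. Sites are shown in genes low with 1 siRNA, with the word in capitals and up to 30 bases in all, from the transcripts' 3' UTRs.
CNOT6: tcttctacccaATAGAATattttcatgcct
MTPN: gggatttaaaaATAGAATcatagccataag
SETD7: tgtatcttgcaATAGAATggctttggtttt
NIP7: tttgtgacgaaATAGAATactgtttcatat
PRDX3: aaagtggcagaGTGACTTaactgatcatgc
CORO1C: ttaagtgttatGTGACTTgttgaacttttt
SLMO2: tgtaaggctatGTGACTTgatcaaaacaga
HNRNPUL1: gggaggaagcaGTGACTTttttttggtaat

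Holders of ATAGAAT stood at -0.104 against other genes with siRNA 1 and at -0.00752 with siRNA 2. Holders of GTGACTT stood at -0.0224 with siRNA 1 and at -0.121 with siRNA 2. Counted from the lowest, ATAGAAT ranked 1 with siRNA 1 and 4654 with siRNA 2, and GTGACTT ranked 6645 and 1. In the DICER1 siRNA libraries the values were -0.0467 and -0.0378 for ATAGAAT, and -0.0166 and -0.0053 for GTGACTT. The next lowest words overlapped these by 6 bases: TAGAATA and TATAGAA with siRNA 1, TGTGACT and TGACTTA with siRNA 2. The words were picked from these libraries, so their low values are a description. With the trend in 3' UTR length, GC and expression removed, a step added after seeing the data, ATAGAAT was at -0.0589 and 0.00129, and GTGACTT at 0.00611 and -0.107, in siRNA 1 and 2, and each was still the lowest word in its library. Of the overlapping words, TAGAATA then ranked 2 and TATAGAA 20 with siRNA 1, and TGTGACT and TGACTTA ranked 2 and 3 with siRNA 2. The siRNA sequences are not given in the sources used here, and a match between them and these words was not tested.

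**Figure D3:**
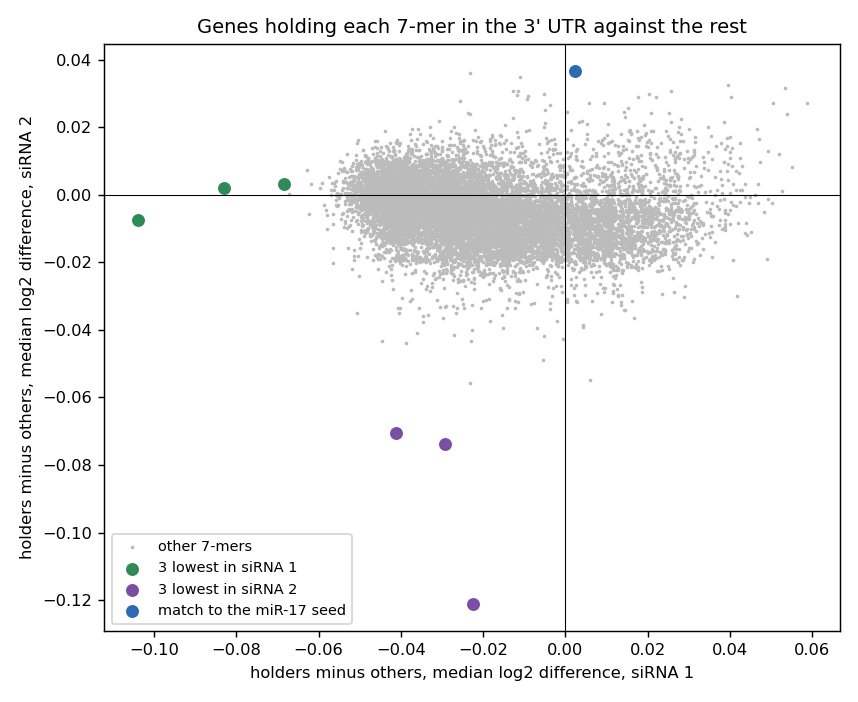
Each point is 1 of 12681 words of 7 bases, placed by the median log2 difference from mock of genes that hold it in the 3' UTR minus that of all other genes, in DROSHA siRNA 1 (horizontal) and siRNA 2 (vertical). The 3 lowest words of each library stand apart from the cloud on that library's axis, at -0.104, -0.083 and -0.0684 for siRNA 1 and -0.121, -0.0738 and -0.0704 for siRNA 2, and the match to the miR-17 seed is the highest with siRNA 2.

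Over all 12039 genes with a usable 3' UTR, 1789 (14.9%) held ATAGAAT and 1806, a like share, held GTGACTT. Each word was picked because its holders were lowest in 1 of these libraries. Its share among genes low in that library is therefore a description and no independent support. Of the 62 genes at least 2-fold lower with siRNA 2, 61 had a usable 3' UTR. Of these 46 held GTGACTT, FSTL1, named above as a hairpin host, among them, and 13 held ATAGAAT. Of the 13 genes at least 2-fold lower with siRNA 1, 7 held ATAGAAT and 4 held GTGACTT. Among the 192 genes called lower without siRNA 1, 132 of 191 held GTGACTT. The 12 genes with the smallest p on the lower side are low in both libraries by the rule that named them. Of those, 9 held ATAGAAT, among them LBR, APP, KIAA1147, NEK7 and NAMPT, and 5 held GTGACTT, among them LBR, KIAA1147 and NEK7. Of the 12 on the higher side 1 held each word, FAM134A and DNAJB9. The 3' UTRs of the 12 lower genes ran from 1120 bases in APP to 5928 in KIAA1147. Those of the 12 higher genes ran from 146 in CHPF2 to 2850 in FAM134A, so the sides were not matched in length. The part of these words in the values of single genes was not tested.

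Matches to microRNA seeds were looked at in the same 3' UTRs, for 24 families of textbook microRNAs. The miR-17, miR-92, miR-19 and miR-18 seeds come from the miR-17-92 cluster and its relatives, abundant in dividing cells, and let-7 is a widely expressed family. One member of each family discussed is shown, with the seed in capitals.
hsa-miR-17-5p: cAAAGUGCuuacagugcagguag
hsa-miR-92a-3p: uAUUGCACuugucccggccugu
hsa-miR-19b-3p: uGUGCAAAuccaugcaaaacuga
hsa-miR-18a-5p: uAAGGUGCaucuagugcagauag
hsa-let-7a-5p: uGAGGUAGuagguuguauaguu
An 8-base site is the match to the seed followed by A, such as GCACTTTA for miR-17 and GTGCAATA for miR-92. The 650 genes with an 8-base miR-17 site stood at 0.0185 with siRNA 1 and 0.0742 with siRNA 2 against genes without one. The 450 genes with a miR-92 site stood at 0.00865 and 0.0759. By 8-base sites these were the 2 highest of the 24 families in each DROSHA library. Of the miR-92 holders 38.2% were higher in both siRNA libraries, against 31.1% of other genes. The miR-19 family was at 0.00326 and 0.0327 and let-7 at -0.00785 and 0.0071. The 8 tissue-restricted families, whose microRNAs belong to liver, muscle, blood or pancreas, lay between -0.0467 and 0.0239. The other 11 widely expressed families, beside let-7 and the 4 seeds of the cluster, lay between -0.0306 and -0.00458 with siRNA 1, inside the range of the tissue-restricted families, and between 0.00124 and 0.0303 with siRNA 2.

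The values above zero came mainly from siRNA 2. With DICER1 siRNAs the miR-17 sites were at 0.00854 and 0.0206 and the miR-92 sites at 0.0177 and 0.0296, against the same mock. With the shorter match to bases 2 to 8, miR-92 was at -0.0118 and 0.0295 in DROSHA siRNA 1 and 2, so its sign differed. With the trend in 3' UTR length, GC and expression removed, miR-92 was at 0.0222 and 0.0417. By the same match miR-17 was at 0.00244 and 0.0368 in DROSHA siRNA 1 and 2, and its word GCACTTT was the highest of the 12681 words with siRNA 2 but ranked 2102 from the top with siRNA 1. With the trend removed it was at 0.0313 and 0.0517 and ranked 4 and 3, and in the DICER1 siRNA libraries it was at 0.0222 and 0.0267. In siRNA 1 the 3010 genes with the longest 3' UTRs had a median of -0.0376 and the 3011 with the shortest 0.0161, against -0.0103 and -0.000888 in siRNA 2. The 3010 genes lowest in 3' UTR GC had a median of -0.0462 in siRNA 1 and 0.0113 in siRNA 2, and -0.0577 and -0.0455 in the DICER1 siRNA libraries. Holders of the miR-17 match had a median 3' UTR of 2898 bases and other genes 977. No test was made of these differences. The family was picked with an earlier result on targets of this cluster in the same libraries known, so these values are not independent support.

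**Figure D4:**
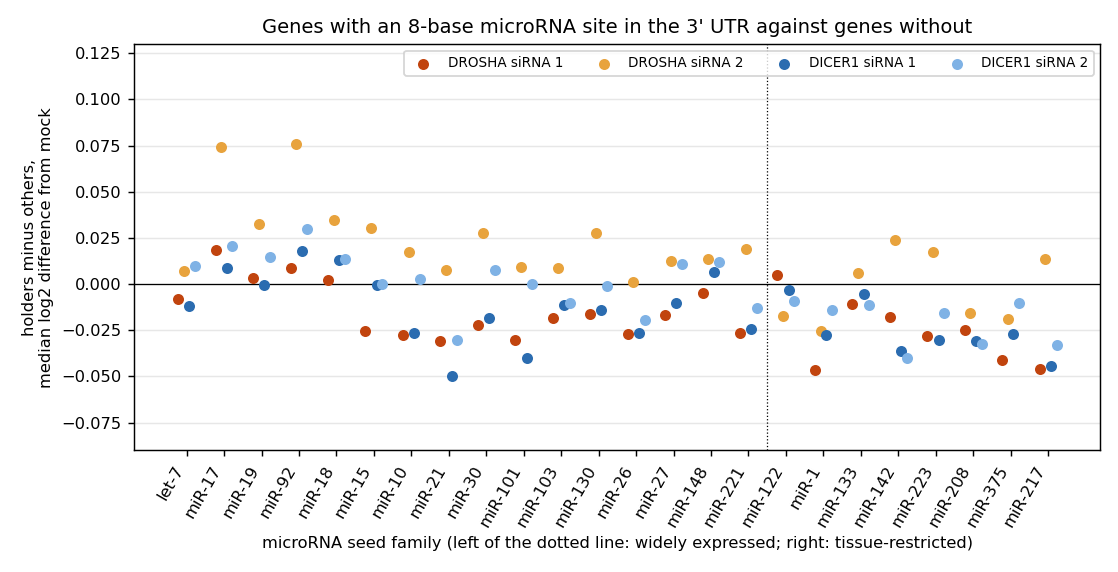
For each of 24 microRNA families, points give the median log2 difference from mock of genes with an 8-base site in the 3' UTR minus that of genes without, in each of the 4 siRNA libraries. The miR-17 and miR-92 families are highest in DROSHA siRNA 2, at 0.0742 and 0.0759, and are at 0.0185 and 0.00865 in siRNA 1.

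Gene groups were described by counts of members higher or lower in both siRNA libraries, to be read against 31.5% and 32.5% of all genes, and by the median log2 difference in each library, with the medians of the DICER1 siRNA libraries against the same mock set beside them. No member apart from DROSHA passed the test. Among 17 genes of the Microprocessor and its cofactors, 1 was higher, DGCR8, and 11 lower, with medians of -0.0533 and -0.116 in siRNA 1 and 2, and of -0.0619 and -0.0878 with DICER1 siRNAs. SRSF3, a splicing factor that helps the Microprocessor recognise hairpins, was at 710, 655 and 634 CPM in the mock, siRNA 1 and siRNA 2. The 23 genes of microRNA maturation and silencing had 6 members on each side, with medians of -0.0202 and 0.00984, and of 0.0327 and 0.0666 with DICER1 siRNAs. TNRC6B, a GW182 protein that links Argonaute to deadenylation, was at 61.2, 75.8 and 75.2 CPM, and TSNAX, a subunit of the nuclease C3PO, at 132, 113 and 101 CPM.

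Endoplasmic reticulum stress genes had the highest share of members above the mock in both libraries of all lists. Of 25 members 20 were higher and 3 lower in both, with medians of 0.116 and 0.106. With DICER1 siRNAs the medians of this list were 0.157 and 0.0978, so both knockdowns stood above their shared mock. HERPUD1, of the machinery that removes misfolded proteins, was at 71.2, 90.4 and 97.3 CPM, and HSPA5, the main chaperone of the compartment, at 472, 554 and 617 CPM. DNAJB9 led the list, with the values above. The 27 ATF4 and amino acid response genes had 12 higher and 3 lower, with a median of 0.102 in siRNA 1 and -0.0084 in siRNA 2, so the sign of the median was not shared. With DICER1 siRNAs it was 0.21 and 0.283. Their leading members, ATF3 at 65.4, 82.8 and 80.7 CPM, PPP1R15A at 67.5, 90.2 and 80.6 and TRIB3 at 49.8, 58.4 and 61.4, were above the mock in both. Cytosolic chaperones lay the other way, with 15 of 25 lower and 4 higher and medians of -0.0886 and -0.0381, and of -0.119 and -0.121 with DICER1 siRNAs. HSP90AA1, the inducible HSP90, was at 3508, 3299 and 3318 CPM.

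Immediate early genes had 13 of 30 members higher and 4 lower, with medians of 0.107 and 0.148, and of 0.177 and 0.235 with DICER1 siRNAs. JUN, a subunit of AP-1, was at 271, 349 and 313 CPM, and KLF4, a zinc finger factor, at 14.5, 18.8 and 24.3 CPM. Of 22 p53 targets 10 were higher and 5 lower, led by the death receptor TNFRSF10B at 286, 339 and 362 CPM. Of 44 lysosomal genes 21 were higher and 8 lower, with medians of 0.0439 and 0.0399, and of -0.00127 and 0.0133 with DICER1 siRNAs. SMPD1, the acid sphingomyelinase, was at 8.09, 12.2 and 13.9 CPM. In the 3 lists both DROSHA medians were above 0. The p53 targets had medians of 0.0618 and 0.176 with DICER1 siRNAs.

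Cholesterol and fatty acid synthesis genes had 19 of 30 members lower and 1 higher, but the size differed between siRNAs, with a median of -0.0522 in siRNA 1 and -0.31 in siRNA 2. With DICER1 siRNAs it was -0.0675 and -0.0786. SCD, the stearoyl-CoA desaturase, was at 559, 470 and 419 CPM in the mock, siRNA 1 and siRNA 2, IDI1, an isomerase of the pathway, at 145, 125 and 112 CPM, and PMVK, a mevalonate pathway kinase, at 38.3, 29.8 and 29.8 CPM. Of the members 3 held GTGACTT and 5 held ATAGAAT, and the 23 with neither had medians of -0.0277 and -0.283. Of 12 genes of the liver X receptor pathway, to which NR1H2 belongs, 3 were higher and 7 lower, with medians of -0.0175 and -0.16, and of 0.0886 and 0.0582 with DICER1 siRNAs. NR1H2 was the only one with an unadjusted p under 0.05. The sterol reductase LBR stood among the low genes, with the values above.

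Proteasome subunits had 19 of 34 members lower and 3 higher, with medians of -0.0275 and -0.0788, and of -0.0801 and -0.107 with DICER1 siRNAs. PSMD6, a lid subunit of the regulatory particle, was at 161, 135 and 130 CPM. Spliceosome genes had 24 of 45 lower and 11 higher, with SF3A1, a U2 snRNP subunit, at 425, 368 and 353 CPM. DNA repair genes had 20 of 41 lower and 7 higher, and neuronal genes 13 of 26 lower and 3 higher, with medians of -0.0564 and -0.145 in the latter. With DICER1 siRNAs the neuronal genes lay on the other side of the mock, at 0.26 and 0.329. DNA repair genes had DICER1 medians of -0.0425 and -0.0156 and spliceosome genes of -0.0512 and -0.112. Cytosolic ribosomal proteins had 42 of 82 higher and 13 lower, with a median of 0.0795 in siRNA 1 and 0.0137 in siRNA 2, and of 0.0291 and 0.0481 with DICER1 siRNAs. Zinc finger genes of the ZNF series had medians of -0.0109 in siRNA 1 and 0.0994 in siRNA 2, with 159 of 427 higher and 87 lower, and of 0.00206 and -0.00136 with DICER1 siRNAs. The 45 protein-coding microRNA hosts of the textbook list had 10 higher and 21 lower, with medians of -0.0407 and -0.0453. With DICER1 siRNAs the medians were -0.0221 and 0.00372. The 31 hosts that held neither 7-base word had 10 higher and 11 lower, with medians of -0.0168 and 0.0209.

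**Figure D5:**
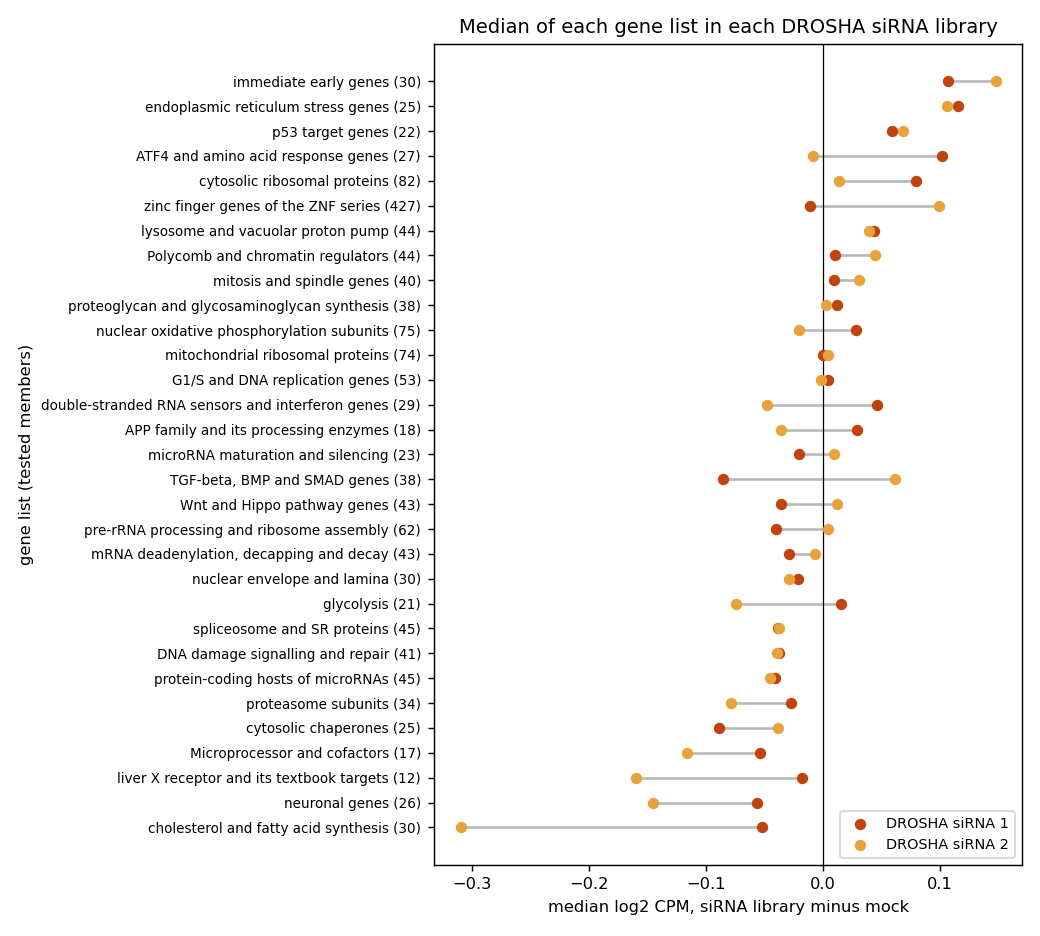
Median log2 difference from mock of each gene list in DROSHA siRNA 1 and siRNA 2, with the number of tested members in brackets and a line joining both libraries. Immediate early and endoplasmic reticulum stress genes are above 0 with both siRNAs, and cholesterol and fatty acid synthesis genes are at -0.0522 and -0.31.

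Other lists had both medians within 0.05 of the mock or on opposite sides of it, among them mitochondrial ribosomal proteins, oxidative phosphorylation, DNA replication, mitosis, mRNA decay and double-stranded RNA sensors. Single members of these lists are named for having the smallest unadjusted p of their list. INHBA, a subunit of activin, was at 1.31, 3.21 and 3.19 CPM, a low level near the filter, and TGFB1 was at 36.6, 28.01 and 25.6 CPM. The histone demethylase KDM6B was at 26.04, 37.0 and 34.4 CPM and JARID2, a Polycomb cofactor, at 62.9, 79.9 and 80.8 CPM. The glucose transporter SLC2A3 was at 9.16, 15.04 and 13.6 CPM, and NDUFA5, a subunit of complex I, at 91.6, 69.7 and 72.5 CPM. In each of these genes the siRNA libraries lay closer to one another than to the mock, and the edgeR adjusted p was 0.978. The choice by small p favours such genes, so this closeness is a description only.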

How the data were processed

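The authors deposited 1 table of whole-number read counts per gene symbol, raw, with no normalization. The submitters' processing notes name edgeR, HTSeq, STAR, CASAVA 1.8.2 and build hg19, with no role or order. The sources used here do not give the strand setting of the counting, so reads of a gene and of one that overlaps it, antisense included, were not separated. Genes reaching 1 CPM in 2 or more of the 5 libraries were kept, which hold 99.929% of reads. edgeR 4.0.16 in R 4.3.3 gave TMM factors and quasi-likelihood p-values, with group as the only term, all 5 libraries in 1 fit and 2 residual degrees of freedom. The mock was assumed to vary like the siRNA pairs. The common biological coefficient of variation was 8.51%. A gene was called at an adjusted p (Benjamini-Hochberg) under 0.05, and the test was checked on simulated counts. Those counts followed the fit's own spread, with equal changes in both DROSHA siRNA libraries. The check therefore does not cover changes made by only 1 siRNA. Total counts per library lay between 7620206 and 8736455, which limits precision for genes of few counts. Chi-square per degree of freedom between libraries was 2.62 for the DICER1 pair and 7.54 for the DROSHA pair, so no library was a copy of another. CPM of single genes use TMM-scaled totals and those of cell markers plain totals.

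Differences per library are log2 CPM with a prior count of 2, minus the mock. For 3' UTRs, 12200 tested genes were matched to GENCODE 29 transcripts on GRCh38, 541 through older symbols, and 12039 had at least 50 bases. MicroRNA sequences came from RefSeq GRCh38.p14. 3 of 43 microRNAs listed, miR-451a, miR-150-5p and miR-10b-5p, were not matched and are not shown. Named genes followed a rule: DROSHA, DICER1 and DGCR8; called genes; the 12 smallest unadjusted p on each side with at least 5 CPM and both siRNA libraries on 1 side; the 6 largest changes on each side with unadjusted p under 0.05; and up to 3 leading members of each list. SLC35B2, FSTL1, MCM7, CHIC1, SETD7, NIP7, SUSD5 and SLMO2 were also named after their values were seen. A few genes that the rule names are not reported here. The members, the 33 lists and the families were chosen with earlier results of these data known, and no set test was made. Alternatives were RLE and upper quartile factors, no filter and filterByExpr, DESeq2 1.42.0, the likelihood ratio test, the 3 libraries alone, and leaving out each siRNA library. Removal of the trend in 3' UTR length, GC and expression, and lists without holders of either 7-base word, were added after seeing the data.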

Additional observations from a re-analysis of the deposited data

Results flagged for a closer look

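For 4 of the genes named, both DROSHA siRNA libraries lay on one side of the mock and both DICER1 siRNA libraries on the other, and the difference between the knockdowns was tested in the same edgeR fit. DROSHA, at -2.20 against the mock on the log2 scale with its own siRNAs, was at 0.0227 and 0.0105 with DICER1 siRNAs, and the direct contrast was -2.22 ± 0.08 (edgeR adjusted p = 0.000369). DICER1, at 0.34 with DROSHA siRNAs, was at -1.71 and -1.84 with its own, and the direct contrast was 2.12 ± 0.10 (edgeR adjusted p = 0.00175). APP, at -0.38, was at 0.11 and 0.06 with DICER1 siRNAs, and the direct contrast of -0.46 ± 0.05 did not pass (edgeR adjusted p = 0.150). The kainate receptor subunit GRIK3, at -0.88 in the DROSHA siRNA libraries, was at 0.20 and 0.73 with DICER1 siRNAs, and its direct contrast of -1.38 ± 0.29 did not pass either (edgeR adjusted p = 0.398).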

How the results depend on the processing

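No paired analysis was possible because the mock is a single library that carries no siRNA number. DROSHA was the only gene called with RLE or upper quartile factors, no filter, filterByExpr, DESeq2, the 3 libraries alone, or without either DICER1 library. Its log2 fold change lay between -2.21 and -2.19 in all settings run. The likelihood ratio test called 3 genes, and leaving out 1 DROSHA library gave between 4 and 225 calls, the larger number without siRNA 1. DGCR8 passed without siRNA 1, at 0.5018 with an adjusted p of 0.0436, and ranged from 0.50 to 0.63. Of 120 named genes and list members, 26 not called with all libraries passed without siRNA 1, and 1 did without siRNA 2; with 1 library a side, the lone siRNA library is assumed to vary like the DICER1 pair. None of them changed sign in any setting. Of 33 list medians, 13 moved by more than the spread between siRNAs when either siRNA library was left out. Among lists with counts in the report those of ATF4, zinc finger and microRNA maturation genes changed sign, and several medians near 0 did too. Upper quartile factors moved 10 of the 33 medians, no filter 6 and RLE factors 3. Leaving out holders of either 7-base word moved 13. With the UTR and expression trend removed, 15 of 24 family values moved by more than the spread between siRNAs. The cause of these changes was not tested. Genes of few counts, such as NR4A2, are limited by depth.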
